A study of Rattus norvegicus with 32 samples.

Results

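The 10 genes studied here belong to the endoplasmic reticulum (ER) stress pathway and the integrated stress response, and were followed in the left ventricle of septic rats. They were the transcription factors Atf6, Xbp1, Atf4 and Ddit3, the ER-resident Hspa5, Calr, Dnajb9 and Herpud1, and the stress-response targets Asns and Trib3. They were taken as the non-control probes whose gene name, in either annotation version of the scanner files, equalled one of these symbols. This gave 13 of the 45598 different probes, and 10 of 10 genes were found. Asns had 2 probes, Atf6 had 3 and each other gene had 1. A gene with several probes was described by the one whose mean over all 32 arrays was highest, called its main probe, and its other probes were used as a comparison.

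The study asked how sepsis and the β1-adrenergic blocker landiolol alter heart transcripts in each sex. The groups were Wistar rats aged 9 to 12 weeks, males and females alike, with 5 sham, 5 CLP and 6 CLP plus landiolol rats in each sex. CLP stands for cecal ligation and puncture, an operation that causes sepsis from the abdomen. Landiolol was infused at 0.1 mg/kg/min from 1 h after CLP, and the other groups received saline in a similar volume. All rats had buprenorphine before surgery, all hearts were perfused ex vivo before they were frozen, and ventricles were collected at 20 h. The animals were reused from an earlier study, and RNA of low integrity was discarded by the authors. Each ventricle was hybridised to 1 one-colour array, so a rat and an array are the same replicate.

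All 13 probes were well above background on 32 of 32 arrays and passed the filter on low signal in both sexes. Per array, 34920 to 43155 spots were well above background, 0 were saturated, and the mean correlation of an array with its own group was 0.951 to 0.982. Each sex lay on slides of its own, and the first female slide was read under another scanner-software protocol, so a difference in level between the sexes cannot be told apart from the slide. In the females, row 1 of the slides held every sham array and row 2 every CLP plus landiolol array. A difference between these groups therefore cannot be told apart from the row. Only the female CLP arrays lay in both rows, so a row term in the females rests on them alone. The cardiomyocyte markers (7 of 7 on all arrays) had a summed level, on the log2 scale, of 20.86–20.98 in male sham, 20.73–20.87 in male CLP and 20.76–20.95 in male CLP plus landiolol. In the females it was 20.94–21.10, 20.90–20.97 and 20.84–21.06, and 0 of 7 markers were called in CLP vs sham in either sex. The macrophage markers (7 of 7 on all arrays) summed to 12.42–12.91 in male sham, 13.21–13.80 in male CLP and 13.39–13.97 in male CLP plus landiolol, and to 12.59–12.98, 13.06–13.59 and 13.35–13.67 in the females. Each sum adds linear intensities, so the strongest markers weigh most. After CLP, 6 of 7 macrophage markers changed by more than 0 in each sex. In CLP plus landiolol vs CLP it was 3 of 7 in the males (median −0.07) and 6 of 7 in the females (median 0.26). The neutrophil sum was 5.18–5.92, 7.03–9.62 and 8.26–9.74 in the males and 5.09–6.02, 7.42–8.75 and 7.46–10.11 in the females, while Ngp was well above background on 0 of 32 arrays and Mpo on 1. The fibroblast sum was 16.24–16.92, 15.53–16.46 and 15.78–16.57 in the males, where 3 of 5 markers were called lower after CLP. It was 15.61–16.16, 15.34–16.32 and 15.81–16.37 in the females, where 0 of 5 were called. The median change of the 5 markers after CLP was −1.34 in the males and −0.95 in the females. At an unadjusted p under 0.05 there were 5 of 5 and 4 of 5, against 28.8% and 23.1% of probes. The endothelial sum was 15.31–15.71, 15.43–15.89 and 15.59–16.21 in the males and 14.97–15.64, 14.99–15.99 and 15.43–15.87 in the females. Marker by marker, only 2 of 5 endothelial changes after CLP were above 0 in each sex, with medians of −0.15 and −0.25. The part of these cell types in the results below was not tested. These are whole-tissue samples, in which fewer cells of a type and less RNA per cell cannot be told apart.

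The ER folds secreted and membrane proteins. When unfolded proteins accumulate, the chaperone Hspa5 leaves the sensors ATF6, IRE1 and PERK, which starts the unfolded protein response. Cleaved ATF6 and the XBP1 protein made after IRE1 splices its mRNA raise chaperones and degradation factors, while PERK and related kinases phosphorylate eIF2α, which slows translation and favours ATF4, the hub of the integrated stress response. Splicing of Xbp1, cleavage of ATF6 and translation of Atf4 are not read by these probes, which measured mRNA levels only.

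CLP was first compared with sham, to ask which of the genes sepsis moved. In the males, Asns and Atf6 rose and Ddit3 fell. In the females, Asns rose. The chaperones Hspa5, Calr and Dnajb9 and the degradation factor Herpud1 did not pass the test in either sex. At an FDR of 1%, 3 of 10 genes passed in the males (2 higher, 1 lower), against 7.81% of the 25864 probes tested. In the females 1 of 10 passed, against 3.63% of 25394 probes. The groups did not overlap for 5 of 10 genes in the males, against 12.3% of probes, and for 2 of 10 in the females, against 8.32%. The median log2 change of the 10 genes was 0.17 in the males and −0.36 in the females, beside medians of 0.01 and −0.01 over all probes tested.

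**Figure D1:**
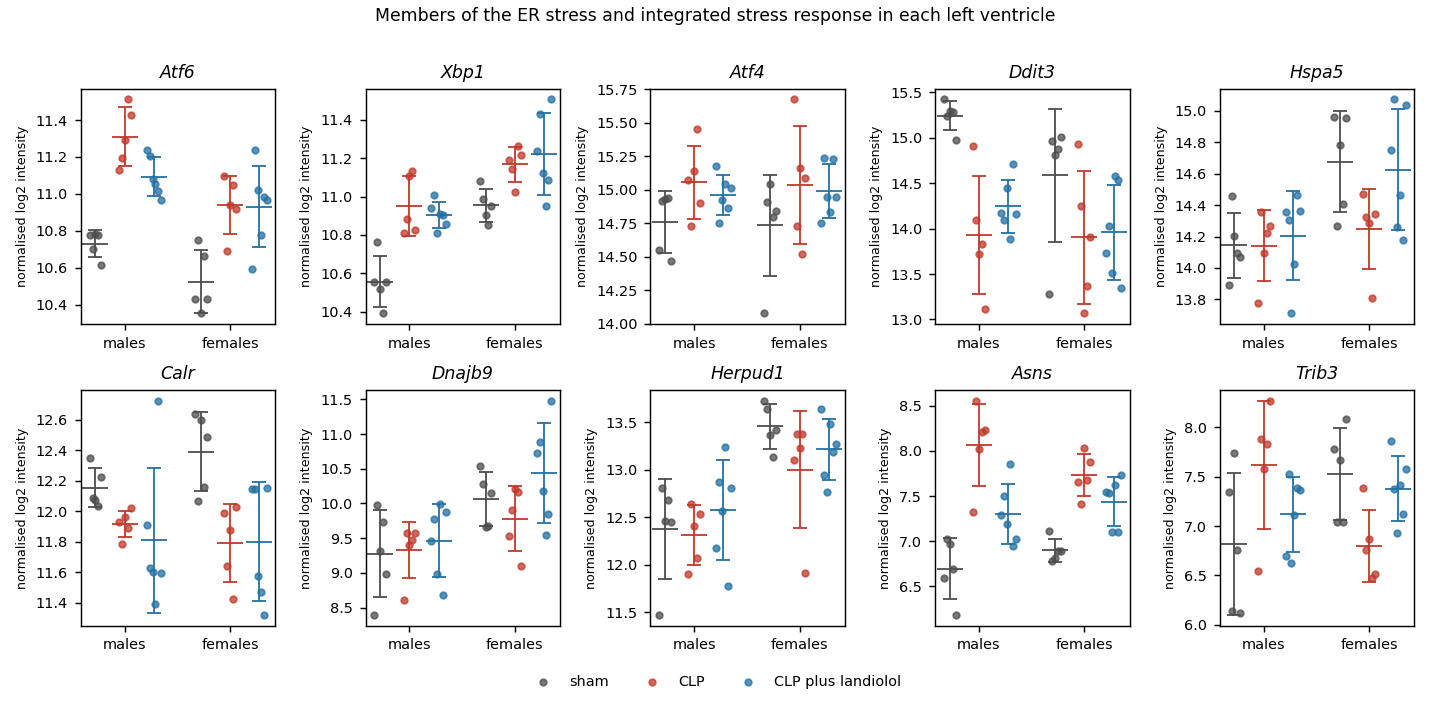
Normalised log2 intensity (y axis, one scale per panel) of each gene's main probe in every left ventricle, for males and females in the sham, CLP and CLP plus landiolol groups (5, 5 and 6 rats). Points are rats, long bars are group means and whiskers are 1 SD. The male CLP points of Asns (7.33 to 8.55) and Atf6 (11.13 to 11.51) lie above all male sham points, and those of Ddit3 (13.12 to 14.90) lie below them.

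Atf6 encodes the membrane-bound sensor that becomes a transcription factor once cleaved. In the males, its normalised log2 intensity was 10.78, 10.70, 10.78, 10.78 and 10.61 in the sham rats. It was 11.13, 11.19, 11.29, 11.51 and 11.43 in the CLP rats. Every CLP male lay above every sham male. The change was 0.58 (SE 0.0982, 95% interval 0.37 to 0.79, n = 5 and 5), a 1.49-fold rise with an adjusted p of 0.000967. A second Atf6 probe also rose in the males, by 0.80 with an adjusted p of 0.00381, and the third gave 0.84 with an adjusted p of 0.0609. In the females, sham rats read 10.43, 10.75, 10.35, 10.67 and 10.43, and CLP rats 11.09, 10.69, 10.94, 11.05 and 10.92. One CLP female lay inside the sham range. The female change was 0.41 (95% interval 0.12 to 0.70, adjusted p = 0.0745). The second probe gave 0.61 in the females (adjusted p = 0.0528), without overlap of the groups, and the third 0.53 (adjusted p = 0.164).

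Xbp1 encodes the transcription factor made after IRE1 splicing. In the males it read 10.55, 10.77, 10.52, 10.39 and 10.56 in sham and 10.81, 10.88, 11.10, 11.13 and 10.83 in CLP. The groups did not overlap, with every CLP male higher. The change of 0.39 (SE 0.0995, 95% interval 0.18 to 0.61) had an adjusted p of 0.0131 and so missed the FDR of 1%. It passed under normexp background correction (adjusted p = 0.00725) and in the table of the authors (adjusted p = 0.00942). Under other alternatives its adjusted p went up to 0.0495. In the females the levels were 11.08, 10.99, 10.90, 10.85 and 10.95 in sham and 11.19, 11.14, 11.03, 11.26 and 11.22 in CLP, and the ranges overlapped. The female change was 0.21 (95% interval −0.04 to 0.47, adjusted p = 0.319).

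Atf4 encodes the factor whose translation rises when eIF2α is phosphorylated. Its mRNA level was 14.47 to 14.94 in male sham and 14.73 to 15.45 in male CLP, with overlap. The change was 0.30 (95% interval −0.01 to 0.61, adjusted p = 0.189). In the females, sham rats read 14.08, 14.90, 15.04, 14.80 and 14.84 and CLP rats 15.67, 14.73, 15.16, 14.52 and 15.08. The ranges overlapped, and the change was 0.30 (95% interval −0.16 to 0.76, adjusted p = 0.450).

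Ddit3 encodes CHOP, a transcription factor known from prolonged ER stress and cell death. Sham males read 15.42, 15.23, 15.29, 15.28 and 14.98. CLP males read 14.90, 14.09, 13.72, 13.83 and 13.12. All CLP males were lower than all sham males, although the highest of them (14.90) was close to the lowest sham male (14.98). CLP males also spread more (SD 0.65) than sham males (SD 0.16). Ddit3 fell by 1.31 on the log2 scale (SE 0.249, 95% interval −1.84 to −0.78), a 2.48-fold change with an adjusted p of 0.00216. When only the sham and CLP arrays were fitted, the adjusted p was 0.0109 and the call was lost. In the females, sham rats read 13.28, 14.96, 14.80, 14.88 and 15.01 and CLP rats 14.93, 14.24, 13.07, 13.37 and 13.91. The first sham female (13.28) stood apart from the rest of its group and lay inside the CLP range. The female change was −0.68 (95% interval −1.50 to 0.14, adjusted p = 0.317), and −1.01 with an adjusted p of 0.0937 without that rat.

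Hspa5 encodes BiP, the main HSP70 chaperone of the ER and a widely used readout of the unfolded protein response. Sham males read 13.89, 14.46, 14.20, 14.10 and 14.07, and CLP males 13.78, 14.36, 14.09, 14.22 and 14.26. The ranges nearly coincided, and the change was −0.00 (95% interval −0.34 to 0.33, adjusted p = 0.997). In the females, sham rats read 14.96, 14.27, 14.78, 14.41 and 14.96 and CLP rats 14.47, 14.32, 14.28, 13.81 and 14.34. The change was −0.43 (95% interval −0.87 to 0.01, adjusted p = 0.231). Without the CLP female at 13.81, which stood apart from its group, it was −0.32 (adjusted p = 0.432).

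Calr encodes calreticulin, a calcium-binding chaperone of glycoproteins. In the males the sham rats read 12.35, 12.09, 12.08, 12.04 and 12.22 and the CLP rats 11.93, 11.79, 11.96, 11.89 and 12.02. The groups did not overlap, with CLP lower, but the change of −0.24 (95% interval −0.65 to 0.17) had an adjusted p of 0.469. With only the sham and CLP arrays in the fit, the adjusted p was 0.172. In the females, sham rats read 12.64, 12.07, 12.60, 12.16 and 12.49 and CLP rats 11.99, 11.64, 11.87, 11.42 and 12.03. These groups did not overlap either, and the change was −0.60 (95% interval −1.02 to −0.18, adjusted p = 0.0733).

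Dnajb9 encodes ERdj4, a co-chaperone of Hspa5. Its levels were 8.39 to 9.97 in male sham, 8.61 to 9.58 in male CLP, 9.67 to 10.54 in female sham and 9.10 to 10.21 in female CLP. The ranges overlapped in both sexes, with a change of 0.05 (95% interval −0.61 to 0.71) in the males and −0.29 (95% interval −0.98 to 0.41) in the females. Herpud1 encodes an ER membrane protein that helps to clear misfolded proteins. It read 11.47 to 12.81 in male sham, 11.91 to 12.64 in male CLP, 13.13 to 13.72 in female sham and 11.92 to 13.38 in female CLP. The changes were −0.06 (95% interval −0.66 to 0.54) and −0.45 (95% interval −0.99 to 0.08). Adjusted p-values of Dnajb9 and Herpud1 were between 0.310 and 0.947.

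Asns encodes asparagine synthetase, a classical target of ATF4 in amino acid shortage. Sham males read 6.60, 7.03, 6.97, 6.69 and 6.18. CLP males read 7.33, 8.55, 8.02, 8.21 and 8.23. All CLP males were higher, with 4 of 5 above 8. The rise was 1.37 (SE 0.229, 95% interval 0.89 to 1.86), or 2.59-fold, with an adjusted p of 0.000857. Sham females read 7.12, 6.79, 6.82, 6.89 and 6.89, and CLP females 7.66, 7.41, 8.03, 7.68 and 7.88. The groups again did not overlap, and the rise was 0.83 (SE 0.155, 95% interval 0.50 to 1.16), or 1.78-fold, with an adjusted p of 0.00323. With the row of the array on the slide as a term, the female rise was 0.80 with an adjusted p of 0.0214 and was no longer called. The other Asns probe rose in the males (1.21, adjusted p = 0.00767) and gave 0.97 with an adjusted p of 0.0193 in the females.

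Trib3 encodes a pseudokinase that is induced by ATF4 and CHOP and dampens their signalling. Sham males read 7.34, 6.14, 7.73, 6.76 and 6.12 and CLP males 6.55, 7.88, 7.58, 7.82 and 8.26. Of 5 CLP males, 4 lay above the sham median, and the change was 0.80 (95% interval 0.07 to 1.53, adjusted p = 0.136). Sham females read 7.78, 7.04, 7.67, 7.04 and 8.09 and CLP females 7.38, 6.76, 6.87, 6.47 and 6.51. Of 5 CLP females, 4 were below every sham female, and the change was −0.72 (95% interval −1.23 to −0.22, adjusted p = 0.0704). The estimates had opposite signs in the sexes and neither passed the test.

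Landiolol was then compared with untreated CLP. No gene of the 10 passed the FDR of 5% in either sex, and the groups overlapped for every gene. Of all probes, 1.56% passed in the males and 0.0945% in the females, and 2.26% and 1.15% did not overlap between the groups. At an unadjusted p under 0.05 there were 2 of 10 genes in the males, against 14.8% of probes, and 1 of 10 in the females, against 9.34%. The median change was −0.07 in the males and 0.05 in the females, beside −0.01 and 0.03 over all probes. This comparison and CLP vs sham use the same CLP arrays, so their values are not independent.

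Asns in CLP plus landiolol males had a lowest level of 6.95, a median of 7.24 and a highest of 7.85. All 6 of these rats were below 4 of the 5 CLP males, and the difference was −0.76 (SE 0.219, 95% interval −1.23 to −0.30, adjusted p = 0.102). Without CLP male 1, the lowest of its group, it was −0.95 with an adjusted p of 0.0157. Leaving out the lowest CLP rat can only widen this difference, and that rat did not meet the outlier criterion for Asns used below. Under other alternatives the adjusted p went up to 0.237. In CLP plus landiolol females Asns read 7.10 at the lowest, 7.54 at the median and 7.74 at the highest, a difference of −0.29 from CLP (95% interval −0.61 to 0.02, adjusted p = 0.573). Against sham, the CLP plus landiolol groups were at 0.61 in the males (95% interval 0.14 to 1.07, adjusted p = 0.0936) and at 0.54 in the females (95% interval 0.23 to 0.85, adjusted p = 0.0256). The other Asns probe differed from CLP by −0.58 in the males (adjusted p = 0.325) and by −0.47 in the females (adjusted p = 0.565). From sham it differed by 0.63 (adjusted p = 0.160) and 0.50 (adjusted p = 0.178).

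Ddit3 read 13.89, 14.17 and 14.72 (lowest, median and highest) in CLP plus landiolol males, and every one of them lay below every sham male. The difference from CLP was 0.31 (95% interval −0.19 to 0.82, adjusted p = 0.560) and that from sham −0.997 (95% interval −1.50 to −0.49, adjusted p = 0.0146), which missed the FDR of 1%. With only the sham and CLP plus landiolol arrays in the fit, Ddit3 passed with an adjusted p of 0.00246. In the females the levels were 13.34, 13.88 and 14.58, 0.05 from CLP (95% interval −0.73 to 0.84) and −0.63 from sham (adjusted p = 0.303).

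Atf6 read 10.97, 11.07 and 11.24 in CLP plus landiolol males, and 4 of these 6 rats lay between all sham and all CLP males. It differed by −0.22 from CLP (95% interval −0.42 to −0.02, adjusted p = 0.294) and by 0.36 from sham (95% interval 0.16 to 0.56, adjusted p = 0.0223). In the females it read 10.59, 10.98 and 11.24, which was −0.01 from CLP and 0.41 from sham (adjusted p = 0.0541). Xbp1 read 10.81, 10.91 and 11.01 in the males, above every sham male, at −0.05 from CLP and 0.35 from sham (adjusted p = 0.0298). In the females Xbp1 read 10.95, 11.18 and 11.51, 0.27 from sham with an adjusted p of 0.149.

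Trib3 read 6.62, 7.24 and 7.53 in CLP plus landiolol males and 6.92, 7.39 and 7.86 in the females. Its difference from CLP was −0.50 in the males (95% interval −1.20 to 0.20, adjusted p = 0.502) and 0.58 in the females (95% interval 0.10 to 1.06, adjusted p = 0.421). Among the ER-resident genes, the differences from CLP in the females were 0.66 for Dnajb9 (95% interval −0.01 to 1.33, adjusted p = 0.540) and 0.38 for Hspa5 (95% interval −0.04 to 0.80, adjusted p = 0.591). Dnajb9 of these females read 9.55, 10.45 and 11.48, and Hspa5 14.18, 14.61 and 15.07, and both ranges reached into that of CLP. In the males the same 2 differences were 0.13 and 0.06. Calr of CLP plus landiolol males read 11.39, 11.62 and 12.72, with 1 rat above every other rat of its sex. The Calr difference from sham in these males was −0.35 (95% interval −0.74 to 0.04, adjusted p = 0.267) and was not called. Without that rat, which did not meet the outlier criterion used below, it was −0.53 and was called lower (adjusted p = 0.00625). Leaving out the highest rat of the group can only lower its mean.

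In CLP plus landiolol vs sham, 0 of 10 genes passed the FDR of 1% in either sex, against 4.15% of probes in the males and 5.25% in the females. The groups did not overlap for 3 of 10 genes in the males (Atf6 and Xbp1 higher, Ddit3 lower), against 7.79%, and for 0 of 10 in the females, against 9.74%. At an unadjusted p under 0.05 there were 4 of 10 genes in each sex, against 24.2% and 26.7% of probes.

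**Figure D2:**
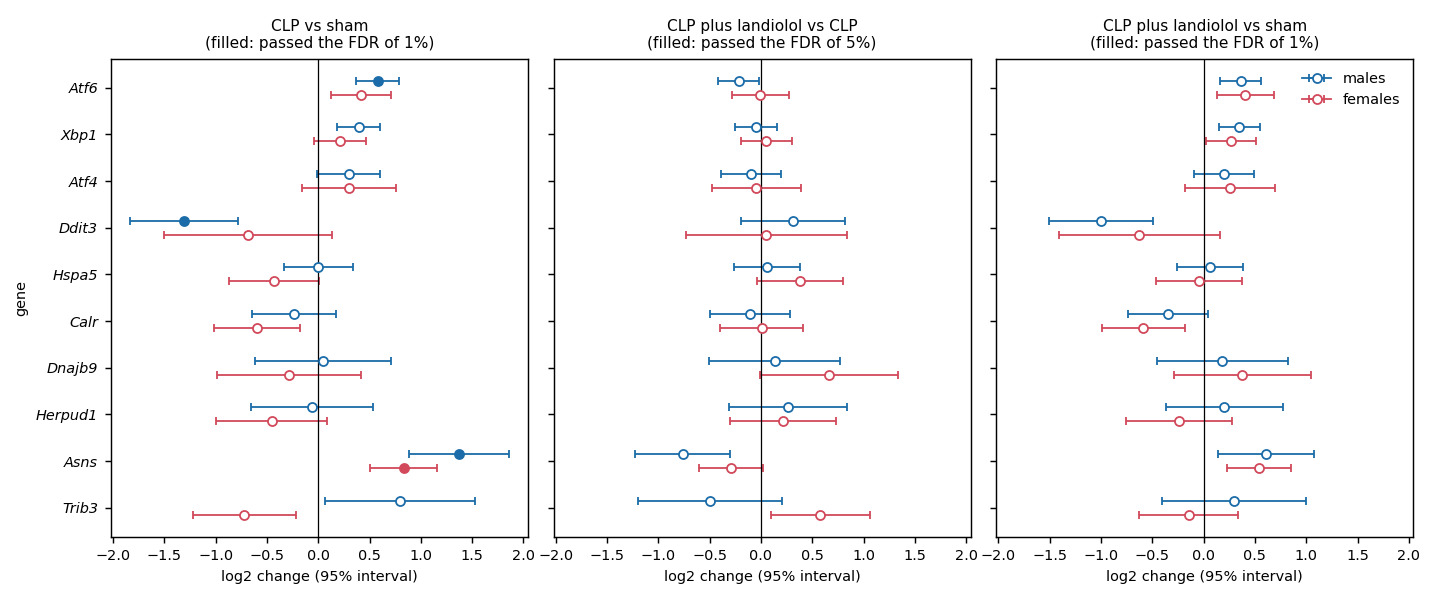
Log2 change of each gene with its 95% interval in CLP vs sham, CLP plus landiolol vs CLP and CLP plus landiolol vs sham, in males (blue) and females (red), from the fit of the 3 groups of a sex; filled points passed the FDR named above the panel. Filled points appear only in CLP vs sham, for Atf6, Ddit3 and Asns in males and Asns in females, and the Trib3 estimates lie on opposite sides of 0 in the sexes (0.80 and −0.72).

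The difference between the sexes was tested as an interaction on all 32 arrays normalised together. For CLP vs sham, 0 of 10 genes and 0% of the 24768 probes passed the FDR of 5%. At an unadjusted p under 0.05 there was 1 of 10 genes, Trib3, against 3.5% of probes. The female change of Trib3 minus the male change was −1.52 (SE 0.429, 95% interval −2.40 to −0.64), with an adjusted p of 0.99988. That of Asns was −0.54 (SE 0.276) and that of Ddit3 was 0.67 (SE 0.470), both with an adjusted p of 0.99988. For CLP plus landiolol vs CLP, again 0 of 10 genes and 0% of probes passed, and 1 gene, against 4.91% of probes, had an unadjusted p under 0.05. This was Trib3 with a female minus male difference of 1.08 (SE 0.411, adjusted p = 0.972). A call in one sex and its absence in the other was therefore not shown to be a difference between the sexes.

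The arrays of a sex were spread over a pair of slides, so each comparison was also read within a slide, on the same arrays. All 3 genes called in the males had the same direction on both slides. Their CLP and sham groups did not overlap, so no other direction was possible and this adds no support. Within slides 1 and 2, Asns gave 1.15 and 1.60, Atf6 0.46 and 0.75, and Ddit3 −1.09 and −1.71. In the females, within slides 3 and 4, Asns gave 0.60 and 1.02. These groups did not overlap either, so that direction was fixed as well. Trib3 gave 0.59 and 1.17 in the males, but −1.23 and −0.12 in the females. Hspa5 and Calr in the females were also unequal between the slides, with −0.83 and 0.03 for Hspa5 and −1.04 and −0.15 for Calr. In the landiolol comparison, Asns was lower than in CLP on all 4 slides (−0.64, −0.94, −0.29 and −0.23), whereas Ddit3 in the males gave −0.00 on slide 1 and 0.78 on slide 2. Of the 10 genes, 8 kept 1 direction on both slides of CLP vs sham in each sex, and 8 in the males and 5 in the females did so in CLP plus landiolol vs CLP. Genes whose groups did not overlap could only do so, and the share of all probes was not counted.

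**Figure D3:**
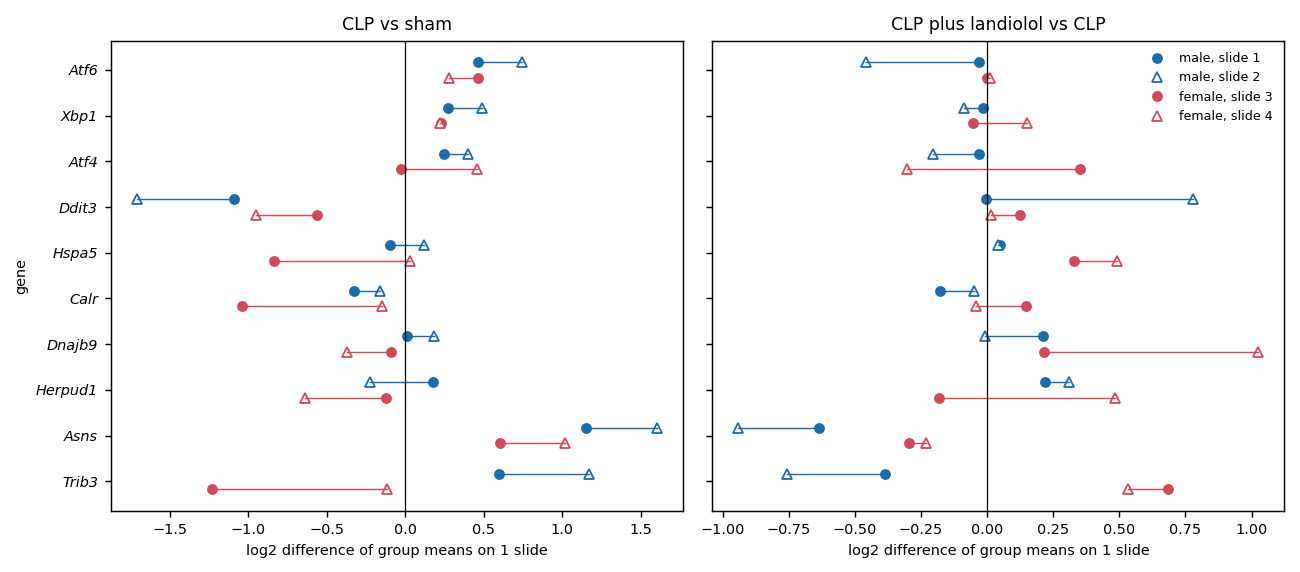
Log2 difference of the group means within 1 slide (x axis) for each gene, in CLP vs sham and in CLP plus landiolol vs CLP; blue symbols are the male slides 1 and 2, red symbols the female slides 3 and 4, and a line joins the slides of a sex. In CLP vs sham Asns lies above 0 on all 4 slides (0.60 to 1.60) and Ddit3 below 0 on all 4 (−0.56 to −1.71).

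The promoters of the genes were read to show which carry the elements that define this pathway, since genes with the classical element for ATF6 and XBP1 and genes without it are both among the 10. The promoter sequences came from RefSeq on build GRCr8, 250 bases before to 50 after the gene start, and 9 of 10 genes had an entry. The promoter of Atf6 was not analysed here. Both strands were searched for the ER stress response element, ERSE (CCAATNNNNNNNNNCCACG), for ERSE-II (ATTGGNCCACG), for the unfolded protein response element, UPRE (TGACGTGG), for the cAMP response element, CRE (TGACGTCA), and for a C/EBP-ATF response element, CARE (TGATGNAA). ERSE was found in 0.0657% of the 33469 promoters, ERSE-II in 0.0508%, UPRE in 0.595%, CRE in 1.83% and CARE in 3.98%. No promoter held both ERSE and ERSE-II, so those matches do not overlap. ERSE was found in Hspa5, Xbp1 and Calr, ERSE-II in Herpud1, and CARE in Herpud1 and Trib3. The matched windows are printed here 5′ to 3′ along the gene, in lower case with the match in capitals, with up to 30 bases on each side. The Calr match and both CARE matches lie on the opposite strand, so they read as the reverse complement of the letters given above.
Hspa5, chr3:38452943-38453015, plus strand: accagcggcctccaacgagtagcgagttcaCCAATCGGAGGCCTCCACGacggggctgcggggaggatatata
Xbp1, chr14:84604528-84604606, plus strand: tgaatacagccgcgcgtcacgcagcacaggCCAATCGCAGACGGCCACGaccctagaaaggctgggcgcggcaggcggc
Calr, chr19:40213117-40213183, plus strand: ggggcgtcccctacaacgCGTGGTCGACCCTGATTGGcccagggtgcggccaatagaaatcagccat
Herpud1, chr19:10614791-10614921, minus strand: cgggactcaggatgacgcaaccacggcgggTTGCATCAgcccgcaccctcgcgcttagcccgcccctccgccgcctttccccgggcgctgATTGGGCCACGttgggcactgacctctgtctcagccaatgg
Trib3, chr3:161275534-161275584, minus strand: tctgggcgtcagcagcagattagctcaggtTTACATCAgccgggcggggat

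The ERSE of Hspa5 lay 43 to 25 bases before the start, that of Xbp1 65 to 47 bases and that of Calr 232 to 214 bases. The ERSE-II of Herpud1 lay 124 to 114 bases before the start. These 4 genes were not called in any comparison, and their male CLP vs sham changes were −0.00, 0.39, −0.24 and −0.06. Asns and Ddit3, which were called, held none of these 5 letter strings in the window, which says only that the letters are not there. Across the genome, 38 symbols had an ERSE or ERSE-II match and 33 of them had a probe. Of the 29 tested in the males, 1 rose and 1 fell after CLP, and of the 27 tested in the females also 1 rose and 1 fell. Of all probes, 7.81% and 3.63% were called in these comparisons, so the male count was near that share. The median changes were −0.00 and −0.12. The gene that rose was Rcl1 (1.67 in males and 1.26 in females) and the one that fell was Ppm1l (−0.61 and −0.71), both named after their values were seen. In the landiolol vs CLP comparison, 0 of these genes passed in either sex.

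The array probes of the 10 genes are 60 bases long, and the files place them on build rn4. Those of the called genes lie at chr4:32759136-32759195 for Asns, chr13:86539782-86539841 for Atf6 (both on the minus strand) and chr7:67252505-67252564 for Ddit3 (plus strand). Their place within exons was not analysed here.

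The rest of the pathway was read from lists of other genes, 1 probe per gene. Among the sensors and eIF2α regulators, 10 of 11 were tested. Ern1, which encodes the sensor IRE1α, rose in CLP males by 1.05 (SE 0.229, adjusted p = 0.00551), from a median of 8.76 in sham to 9.60 in CLP, without overlap (adjusted p up to 0.0170 under the alternatives). In the females Ern1 changed by 0.96 with an adjusted p of 0.0110 in CLP vs sham. It was higher by 1.96 (SE 0.208, adjusted p = 4.49e-05) in CLP plus landiolol females than in sham, with levels of 10.40 to 11.33 against 8.78 to 9.34. The value was 1.84 with an adjusted p of 0.0608 once the row was a term of the fit. Row and group go together in this comparison, so they cannot be told apart. None of the other tested genes of this list passed in any comparison. The median change of the list was 0.12 in the males and 0.18 in the females after CLP.

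ER chaperones and folding enzymes other than Hspa5, Calr and Dnajb9 gave 0 calls among 16 genes in all 6 comparisons. Over all probes, the share called ranged from 0.0945% to 7.81% in these comparisons. After CLP their median change was 0.08 in the males and −0.28 in the females, where 2 of 16 changes were above 0. Between CLP plus landiolol and CLP the medians were −0.08 and 0.24, and 15 of 16 changes were above 0 in the females. Over all probes the medians of both comparisons ran from −0.01 to 0.03, and the share of probes above 0 was not counted. Every female CLP plus landiolol array lay in row 2, while the female CLP arrays lay in both rows. The part of the row in these directions was not tested. The female CLP arrays enter both comparisons. At an unadjusted p under 0.05, 2 of 16 passed in the males after CLP, against 28.8% of all probes, and 3 of 16 in the females, against 23.1%. Genes of ER-associated degradation gave 0 calls among 12 genes in all 6 comparisons, with medians of 0.13 and 0.09 after CLP, and 3 of 12 and 1 of 12 at an unadjusted p under 0.05, against the same 28.8% and 23.1% of probes.

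The targets of ATF4 and the integrated stress response held most of the calls among these lists. In CLP males, 5 of 23 rose and 0 fell, against 7.81% of probes called in either direction. At an unadjusted p under 0.05 there were 15 of 23, against 28.8% of probes. The groups did not overlap for 7 of 23, against 12.3% of probes, and the median change was 0.28. Slc7a5, the light chain of a large amino acid transporter, rose by 2.47 (SE 0.405, adjusted p = 0.000772), from a median of 5.04 in sham to 7.80 in CLP, and was well above background in 4 of 5 sham males. Slc3a2, its heavy chain, rose by 1.88 (SE 0.416, adjusted p = 0.00594, and up to 0.0176 under the alternatives). Ddit4, an inhibitor of mTORC1 signalling, rose by 1.65 (SE 0.295, adjusted p = 0.00139). The other genes that rose were Mthfd2, a mitochondrial folate enzyme (1.13, adjusted p = 0.00133), and the transcription factor Cebpb (0.67, adjusted p = 0.00447), named after their values were seen. In CLP females, 1 of 22 rose and 1 fell, against 3.63% of probes called. At an unadjusted p under 0.05 there were 5 of 22, against 23.1% of probes. Slc7a5 rose by 1.99 (adjusted p = 0.00983), a call that 6 alternatives and the loss of any of 9 arrays took away (adjusted p up to 0.0368), and its size was 0.84 under normexp correction. Wars, the cytosolic tryptophanyl-tRNA synthetase, fell by 2.63 (SE 0.398, adjusted p = 0.000769), from 14.07–16.05 in sham to 12.02–14.14 in CLP.

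In CLP plus landiolol males vs CLP, Slc7a5 fell by 1.82 (SE 0.388, adjusted p = 0.0292) and Nupr1, a small stress-induced nuclear protein, rose by 1.36 (SE 0.316, adjusted p = 0.0427). Nupr1 read 10.05 to 11.55 in CLP males and 11.41 to 12.40 in CLP plus landiolol males. These 2 calls were made among 23 genes, against 1.56% of probes. Both were lost with no filter and with only the groups compared. Nupr1 was also lost without CLP male 2, 3, 4 or 5, and whichever CLP plus landiolol male was left out. Slc7a5 was also lost without CLP male 2, 3, 4 or 5, or CLP plus landiolol male 3 or 5. Adjusted p-values went up to 0.0966 for Slc7a5 and up to 0.135 for Nupr1. In the females, 0 of 22 passed. The median changes were −0.20 and −0.24. At an unadjusted p under 0.05 there were 10 of 23 genes in the males and 4 of 22 in the females. The shares of all probes were 14.8% and 9.34%. Against sham, Mthfd2 rose in CLP plus landiolol males (0.97, adjusted p = 0.00482), with an adjusted p of 0.0167 when only those groups were fitted. Wars was lower in CLP plus landiolol females than in sham (−2.96, adjusted p = 0.000185), where row and group again go together. It gave −3.63 and an adjusted p of 0.0420 once the row was a term.

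**Figure D4:**
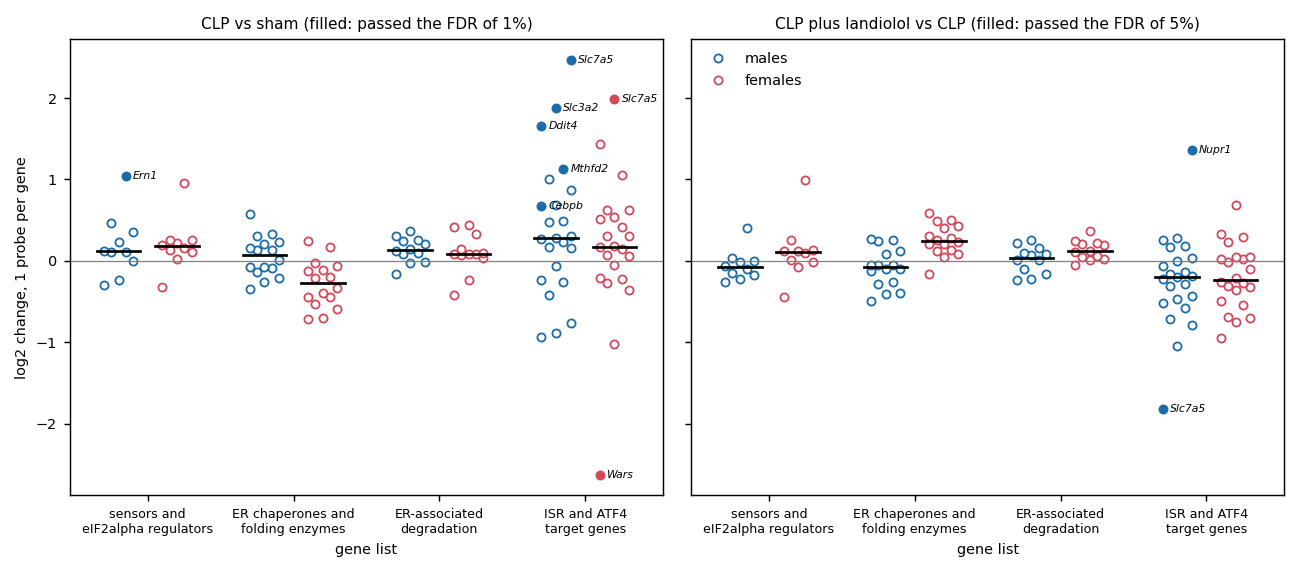
Log2 change of each other pathway gene (points, 1 probe per gene) by gene list, in CLP vs sham and in CLP plus landiolol vs CLP, for males (blue) and females (red); black bars are list medians, filled points passed the FDR named above the panel, and these are labelled. Filled points lie mainly among the integrated stress response targets, from Slc7a5 at 2.47 in males to Wars at −2.63 in females, and none lies among the ER chaperones or the degradation genes.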

How the data were processed

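Left ventricles of 32 rats in 6 groups were read on Agilent rat arrays (Feature Extraction 10.5). The authors deposited the scanner output, in which each spot has a processed intensity after background subtraction, and a table of quantile-normalised log2 values for 38875 spots, used here only as an alternative. Whether an offset was added to that table is unknown; its column medians were 9.62 to 9.71 and its lowest Spearman correlation with the scanner values was 0.995.

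From 58717 non-control spots, outlier-marked spots were dropped (213 probe-array cases), and log2 processed intensities were averaged per probe and quantile-normalised within each sex. Probes passed the filter if 80% or more of the arrays of any group had them well above background, and were tested with limma 3.58.1 in R 4.3.3 (tables read with data.table, version 1.17.8), with the 3 groups of a sex in 1 model and Benjamini-Hochberg adjustment over all probes tested. The FDR was 1% in comparisons with sham and 5% in the other comparison and the interaction. The study used SAM, which was not run. The number of arrays limits the precision.

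All 10 genes are named. From the other lists, the 3 largest called changes per list and comparison were named. The genes and lists were chosen with earlier results of these data known. The alternatives were normexp (offset 50), 75th percentile scaling, no filter, only the groups compared, slide or row as a term, the deposited log2 values, the other FDR and leaving out each array. The tests were checked on simulated data.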

Additional observations from a re-analysis of the deposited data

Results flagged for a closer look

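In 6 of 60 groups of rats examined (10 genes in 6 groups), 1 rat stood apart from the others by the Dixon criterion; chance marks about 1 in 20 groups. Replicate 1 of the female sham group was low for Atf4 (14.08, nearest 14.80) and for Ddit3 (13.28, nearest 14.80). Without it, the CLP vs sham change in the females was 0.14 for Atf4 and −1.01 for Ddit3 (adjusted p = 0.0937), and neither was called. Replicate 1 of the male CLP group was low for Dnajb9 (8.61, nearest 9.40), and without it the change against sham was 0.23. Replicate 1 of the male sham group was low for Herpud1 (11.47, nearest 12.45), and without it that change was −0.29. In the female CLP group, replicate 5 was low for Herpud1 (11.92, nearest 13.11) and replicate 4 for Hspa5 (13.81, nearest 14.28); without them the changes against sham were −0.18 and −0.32. Replicate 1 of the male CLP group was the lowest rat of its group for 7 of the 10 genes.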

How the results depend on the processing

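No paired analysis was made, because each rat belonged to 1 group and was read on 1 array. Of 600 values of the 10 genes under alternatives other than leaving out an array, 584 kept direction and side of the threshold, 2 lost the call, 3 gained it and 11 changed sign; of 640 with 1 array left out, the counts were 597, 1, 4 and 38. From the other lists, only the 3 largest called changes per list and comparison were followed, picked after seeing the data. All were called at the start, so no call was left to gain, and large changes seldom change sign. Their counts are therefore not comparable with those of the 10 genes and do not describe the rest of the lists. Of these values, 16 of 110 and 43 of 115 lost the call and 0 changed sign. The cause was not tested.

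Against sham in CLP plus landiolol males, 1 gene was called (lower) with only the groups compared and 3 at an FDR of 5%; in the females 1 was called at an FDR of 5%. In CLP vs sham females 0 were called with the row term. With 1 array left out, the calls ranged from 3 to 4 in CLP vs sham males, from 0 to 1 in CLP vs sham females, and from 0 to 1 in each landiolol comparison of the males. Without replicate 3 of the female CLP group, Asns missed the FDR (0.76, adjusted p = 0.0103). Xbp1 in CLP vs sham males was also called without replicate 2 of the male sham group (adjusted p = 0.00946) or replicate 1 of the male CLP group (adjusted p = 0.00998). The Asns rise was 0.99 in the males and 0.61 in the females under normexp.

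The following values changed sign. Hspa5 in CLP vs sham males was 0.018 with the 75th percentile and 0.018 with the slide term, and in CLP plus landiolol vs sham males −0.013 in the table of the authors. For CLP plus landiolol vs CLP females, Calr was −0.0025 (75th percentile) and −0.0062 (normexp), Atf6 0.012 (slide), and Xbp1 −0.019 and Atf4 0.19 (row). With the row term, CLP plus landiolol vs sham females gave 0.24 for Hspa5, 0.35 for Herpud1 and 0.37 for Trib3. With 1 array left out, CLP vs sham males ranged from −0.065 to 0.090 for Hspa5, −0.172 to 0.229 for Dnajb9 and −0.287 to 0.048 for Herpud1. CLP plus landiolol vs CLP males ranged from −0.029 to 0.161 for Hspa5, −0.046 to 0.289 for Dnajb9 and −0.180 to 0.0014 for Atf4. CLP plus landiolol vs sham males ranged from −0.0022 to 0.160 for Hspa5, −0.038 to 0.357 for Dnajb9 and −0.024 to 0.360 for Herpud1. CLP plus landiolol vs CLP females ranged from −0.083 to 0.106 for Calr, −0.068 to 0.061 for Atf6, −0.0028 to 0.108 for Xbp1, −0.173 to 0.115 for Atf4, −0.156 to 0.310 for Ddit3 and −0.059 to 0.307 for Herpud1, and CLP plus landiolol vs sham females from −0.151 to 0.041 for Hspa5.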
